A study of Mus musculus with 16 samples.

Results

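Sleep deprivation (SD) was compared with undisturbed rest in the somatosensory cortex of wild-type mice, gene by gene across the transcriptome. All genes that any of the 6 wild-type libraries had read are described, 20417 of the 24421 that the deposited tables list. The groups were 3 control mice (CTL-WT-01, -02 and -03), left undisturbed until ZT4, and 3 mice (SD-WT-01, -02 and -04) kept awake by gentle handling for 8 h, from ZT20 to ZT4, where ZT counts hours from light onset. All were C57BL/6 mice aged 2 to 3 months, male according to the labels, and carried no transgene or deletion. Mice lacking AcPb, the brain-specific accessory protein of the interleukin-1 receptor, were handled alike and are used here only where their values stand beside those of the wild type. Of the 4 wild-type SD samples that the labels list, SD-WT-03 was not analysed here.

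Waking keeps cortical neurons firing for longer than they otherwise would, and firing neurons are known to switch on immediate early genes within minutes and synaptic, growth factor and feedback genes after them. Prolonged waking is also known to engage the chaperones that fold newly made proteins in the endoplasmic reticulum (ER), to shift the molecular clock of the cortex, a loop in which the Arntl and Clock proteins drive the Per and Cry genes that repress them, and to raise corticosterone, which acts on the brain through the glucocorticoid receptor. Sterol synthesis, in which the transcription factor Srebf2 drives a chain of enzymes from acetyl-CoA to cholesterol, takes place in the brain itself because plasma cholesterol does not cross the blood-brain barrier.

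The libraries held 32870075 to 41615582 reads on genes in the controls and 58770286 to 71775967 after SD, so that depth differed with the groups. Values below are the deposited normalized counts (reads divided by a size factor for each library), always in the order of controls 01, 02 and 03 and SD libraries 01, 02 and 04. Excitatory and inhibitory cortical markers were read in every library, and the summed counts of 10 interneuron markers were 57499 to 58917 in the controls and 55479 to 59561 after SD. Those of 10 excitatory markers were 94340 to 103441 in the controls and 83449 to 95818 after SD. Controls 02 and 03 went against the label for sex. Reads of Xist, the RNA of the inactive X chromosome, numbered 13, 32698 and 39358 in the controls against 7, 9 and 11 after SD, while reads on Uty, Kdm5d, Ddx3y and Eif2s3y of the Y chromosome numbered 5398, 0 and 2 against 10323, 8548 and 10593. The sex chromosome reads thus differed with the groups in part in the comparison of 6 libraries, and the leading counts are also given in a fit of the 8 libraries of both genotypes without Xist reads (2 controls, of which 1 is wild-type, and 6 SD libraries, with genotype as a term), which shares control 01 and the SD libraries with the main comparison and is no independent sample. That fit holds 1 SD effect over both genotypes, so its values include the response of AcPb-/- mice. Depth differed with the groups in that fit too.

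After SD, 2690 genes were higher and 2496 lower at an adjusted p under 0.05 by limma's moderated test, 5186 in all, which is 25.4% of the genes tested (13.2% higher and 12.2% lower). These shares are the background against which the counts of gene groups below are read. The groups did not overlap for 8198 genes (40.2%), and 5079 of these were among the 5186. Most changes were small, as the median absolute log2 fold change of the genes past the threshold was 0.41, and 458 of them changed by at least 1 on the log2 scale, 190 upward and 268 downward. Set against control 01 alone, the only wild-type control whose reads match the male label, 2689 of the 2690 higher genes were above it and 2496 of the 2496 lower genes below it. That control belongs to the comparison itself. In the 8 libraries without Xist reads, 15% of 20768 genes tested were higher and 13.5% lower.

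The largest changes among well-expressed autosomal genes joined hormone, metabolic and signaling genes. Dio2, the deiodinase with which astrocytes make active thyroid hormone, stood at 4452, 4938 and 5300 in the controls against 11908, 12024 and 13173 normalized counts after SD. No control came near the lowest SD library, and the difference was 1.34 ± 0.07 on the log2 scale (± SE throughout, adjusted p = 3.97e-05). Mfsd2a, the carrier of lysolipid-bound omega-3 fatty acids at the blood-brain barrier, stood at 847, 1042 and 934 in the controls against 2361, 2533 and 2076 normalized counts after SD (log2 fold change 1.30 ± 0.09, adjusted p = 0.000135). Rasd1, a Ras-like protein first known as a dexamethasone-induced gene, stood at 137, 177 and 208 in the controls against 606, 573 and 712 normalized counts after SD (log2 fold change 1.87 ± 0.15, adjusted p = 0.000146). The SD libraries lay above every control for all 3, as the filters for naming given below required. Further genes that rose by 1.25 to 1.80 included Serinc2, the membrane transporter Slc4a11, the sulfotransferase Sult1a1, the cell cycle inhibitor Cdkn1a, the carbonic anhydrase Car12, the hypoxia-inducible factor Hif3a, the Wnt-induced matricellular gene Wisp1, Prg4, Plekhg4, Smim3 and the kinase Map3k19. Slc4a11 in the 8 libraries was at 0.85 and Prg4 at 1.94. Plin4, which coats lipid droplets, had the largest rise of all, 2.91 ± 0.30. Its counts were 70.4, 159 and 101 in the controls against 994, 969.7 and 520.4 normalized counts after SD, and SD library 04 stood at about the midpoint between the controls and the other SD libraries.

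Nuclear genes for mitochondrial proteins were among the largest falls. Atp5e, the epsilon subunit in the stalk of ATP synthase, stood at 2056, 2484 and 2495 in the controls against 701, 709 and 1327 normalized counts after SD (log2 fold change -1.42 ± 0.21, adjusted p = 0.00134). Sdhaf4, which assembles succinate dehydrogenase, stood at 471, 541 and 563 in the controls against 172, 170.3 and 286 normalized counts after SD (log2 fold change -1.36 ± 0.18, adjusted p = 0.00101). In both, SD library 04 was the nearest of the SD libraries to the controls, without reaching them. Dbp, a clock-driven transcription factor, Nptxr, the receptor of neuronal pentraxins, and Bace2, a protease related to β-secretase, fell, at -1.77, -2.34 and -1.92 on the log2 scale. The matrix proteins Thbs1 and Col8a2, Samd3, Tmem74b, the phosphatase regulator Ppp1r35, Usp43, the protease inhibitor Serpinb1a, Tmem160 and the noncoding Gt(ROSA)26Sor transcript had log2 fold changes from -1.71 to -1.19. Col8a2 in the 8 libraries was at -0.94 and Thbs1 at -0.65, where it missed the threshold (adjusted p = 0.0625). Against control 01 alone Col8a2 was at -1.30 and Thbs1 at -0.91, and in AcPb-/- mice they were at -0.60 and -0.59. The genes named as largest changes belong to the 30 taken from the 2925 that passed the filters for naming. The filters include groups that do not overlap, so the separation of these genes was fixed by their selection. They also include a mean of at least 100 normalized counts and an adjusted p under 0.05 in the limma fit of 12 libraries with a term for Xist.

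**Figure D1:**
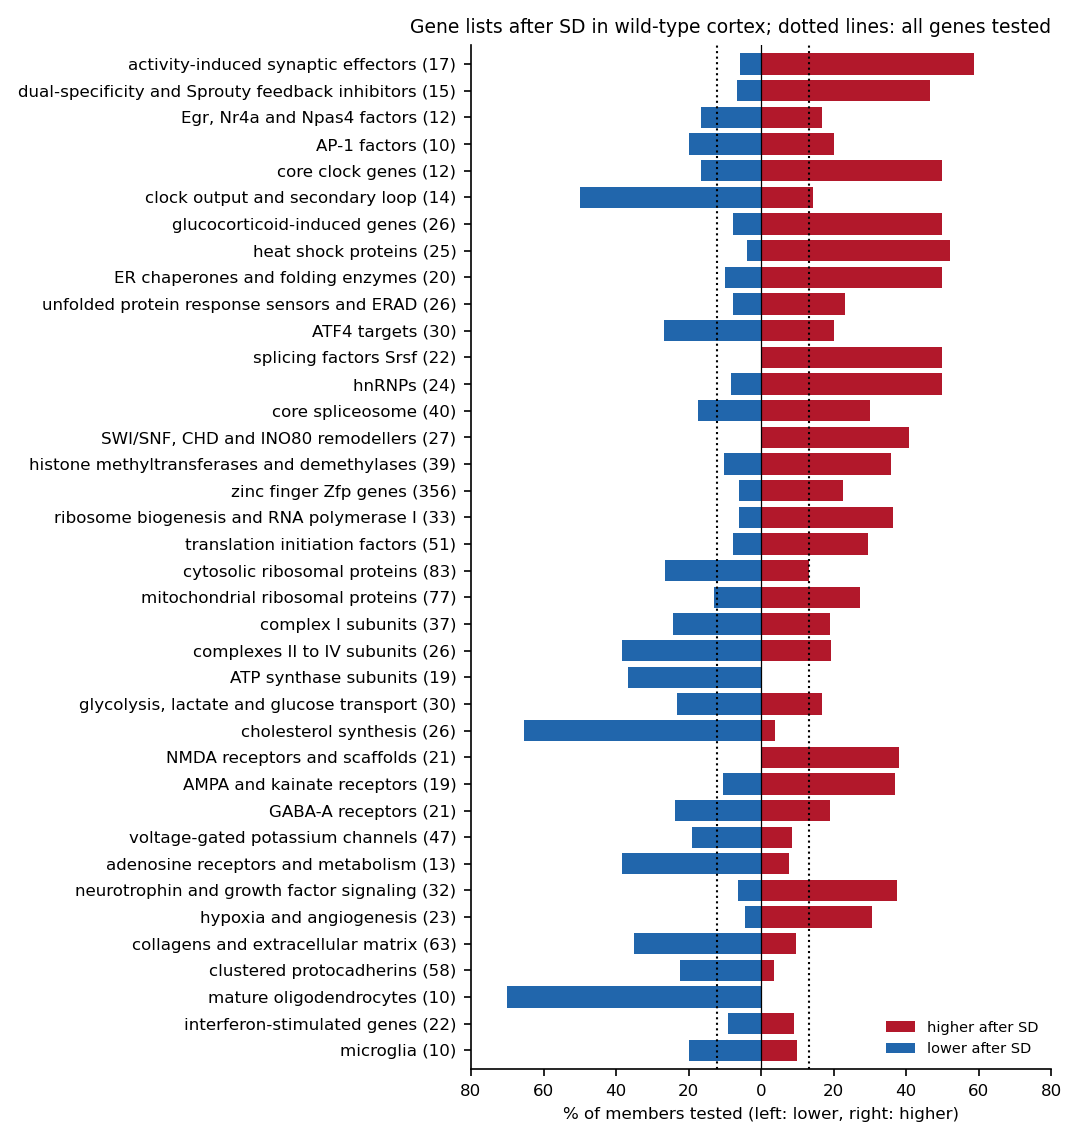
Share of the tested members of each gene list drawn that were past the threshold, lower after SD to the left and higher to the right. The number tested stands in parentheses. The lists drawn are a choice from the 92 that had tested members. The dotted lines mark the shares over all genes, 12.2% lower and 13.2% higher, and the bars of cholesterol synthesis and mature oligodendrocytes reach farthest to the left while those of the synaptic effectors and heat shock proteins reach farthest to the right.

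Chaperones of the ER rose. Of 20 ER chaperones and folding enzymes, 10 were higher and 2 lower, with a median log2 fold change of 0.25 against -0.004 over all genes tested. In the 8 libraries without Xist reads the count was 11 higher and 1 lower. The promoters of several of these genes carry the ER stress element, CCAAT followed after 9 bases by CCACG, which is where the factors ATF6 and NF-Y are known to bind when unfolded protein accumulates. The stretches around it are shown because Calr and Hsp90b1, the members with the largest rises, hold it. They are RefSeq promoter sequences on GRCm38.p6, with 25 bases on each side, read 5′ to 3′ on the gene's strand, and capitals mark CCAAT and CCACG or, where the element lies on the other strand, their complements.
Hspa5, chr2:34772000-34772068, plus strand: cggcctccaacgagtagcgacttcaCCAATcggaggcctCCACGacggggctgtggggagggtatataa
Hsp90b1, chr10:86705508-86705681, minus strand: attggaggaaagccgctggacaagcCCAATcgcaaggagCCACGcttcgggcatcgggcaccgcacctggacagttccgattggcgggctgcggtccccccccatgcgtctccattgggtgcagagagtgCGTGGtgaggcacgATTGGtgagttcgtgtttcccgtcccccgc
Calr, chr8:84847050-84847118, minus strand: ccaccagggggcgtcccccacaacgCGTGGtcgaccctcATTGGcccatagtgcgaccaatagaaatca
Pdia6, chr12:17266466-17266534, plus strand: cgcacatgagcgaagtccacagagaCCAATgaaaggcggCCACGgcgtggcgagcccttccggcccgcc
Dnajc3, chr14:118937802-118937870, plus strand: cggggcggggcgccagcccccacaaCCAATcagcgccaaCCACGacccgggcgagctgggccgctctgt
Canx, chr11:50325775-50325843, minus strand: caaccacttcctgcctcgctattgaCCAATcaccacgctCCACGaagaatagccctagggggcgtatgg
Creld2, chr15:88819495-88819563, plus strand: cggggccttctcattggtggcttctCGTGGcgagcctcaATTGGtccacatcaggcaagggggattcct

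The element began at -65 from the start site in Hspa5 and from -98 to -162 in Pdia6, Dnajc3, Creld2, Canx and Calr, and Hsp90b1 held it once on each strand. Searched on both strands in the 300 bases from 250 before to 50 after each start, it was present in 0.119% of 32851 RefSeq promoters. Among the 17 ER chaperones with a promoter in the table, 7 held it, of which Hspa5, Hsp90b1, Calr, Pdia6 and Dnajc3 were higher while Canx and Creld2 did not pass. Of the 10 without it, 4 were higher and 2 lower. Over all tested genes with a promoter the element was in 24 of 14733. Of the 24, 8 were higher, 1 was lower and 15 did not pass, against 13.2% higher and 12.2% lower over all genes tested. The 8 include the 5 higher chaperones just named. The other 3 of the higher genes were Derl3 and Syvn1, which retrieve and mark misfolded proteins for degradation, and the zinc finger gene Zfp57. A match of letters does not show that a factor was bound in these samples.

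Calr, the calcium-binding lectin chaperone calreticulin, showed the largest rise of the group, with 18061, 13721 and 14754 in the controls against 28904, 29699 and 28570 normalized counts after SD (log2 fold change 0.92 ± 0.09, adjusted p = 0.000293). Hsp90b1, the ER form of HSP90, stood at 18069, 15492 and 16976 in the controls against 27754, 29328 and 31288 normalized counts after SD (log2 fold change 0.81 ± 0.08, adjusted p = 0.000236). Hspa5, the ER chaperone BiP, stood at 12745, 9006 and 9789.5 in the controls against 14069, 13922 and 18643 normalized counts after SD (log2 fold change 0.57 ± 0.14, adjusted p = 0.0140). The groups stood clear of each other in all 3, though control 01 was the highest control in each and reached 12745 for Hspa5, close to the 13922 of SD library 02. For Hspa5 the log2 fold change was 0.27 against control 01 alone and 0.53 in the 8 libraries (adjusted p = 0.0127). The disulfide isomerases Pdia3, Pdia4 and Pdia6 rose by 0.59, 0.53 and 0.42, and the secreted chaperone Manf and the BiP partner Dnajb11 by 0.51 and 0.45. The isomerase Txndc5 and the reductase Dnajc10 fell, at -0.43 and -0.23 on the log2 scale. Of 26 sensors and degradation genes of the same response, 6 were higher and 2 lower (median 0.029), with the retrotranslocation protein Derl3 at 0.996 ± 0.19, the sensor Atf6 at 0.44 ± 0.07, the factor Xbp1 at 0.15 ± 0.09 (adjusted p = 0.247) and the stress-induced Ddit3 at 0.15 ± 0.06 (adjusted p = 0.129). Of 30 targets of the stress factor ATF4, 6 were higher and 8 lower. These lists had in the 8 libraries 6 higher and 0 lower, and 4 higher and 6 lower.

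Heat shock proteins and their partners outside the ER, mostly cytosolic but with the mitochondrial Hspd1 and Hspe1 among them, rose as well, 13 higher and 1 lower of 25 (median 0.30), and 17 higher and 1 lower in the 8 libraries. Hsph1, the HSP110 exchange factor, stood at 17743, 15051 and 16481 in the controls against 24910, 26346 and 29815 normalized counts after SD (log2 fold change 0.72 ± 0.08, adjusted p = 0.000606). Hspa8, the constitutive HSP70, stood at 74401, 61678 and 68706 in the controls against 117579, 124597 and 121173 normalized counts after SD (log2 fold change 0.83 ± 0.09, adjusted p = 0.000338). The groups did not overlap in either gene. Hspa8 shares 32.1% of its 100-base exon stretches with other annotated genes, and how the counting treated such reads is not given in the sources used here. The cochaperones Dnajb5, Stip1, Chordc1 and Ahsa1 rose by 0.94, 0.69, 0.60 and 0.55, and Hspbp1, which releases nucleotide from HSP70, fell, at -0.65. Some heat-induced members did not pass the threshold. Hspa1a stood at 0.05 ± 0.10, Hspa1b at 0.27 ± 0.13, Dnajb1 at -0.07 ± 0.07 and the small heat shock protein Cryab at 0.14 ± 0.09. Of the stretches of Hspa1a and Hspa1b, 56.5% and 49.9% are shared with each other or with further genes.

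The heat shock element, GAA, TTC and GAA each separated by 2 bases, was searched in the same promoters and found on either strand in 0.603% of them. It was present in 4 of the 20 heat shock genes with a promoter, of which Chordc1, Hspd1 and Hsph1 were higher and Hspe1 was at 0.21 ± 0.08 (adjusted p = 0.0767), and of the 16 without it 6 were higher and 1 lower. Among all 98 tested genes with the element, 17 were higher and 10 lower, against 13.2% higher and 12.2% lower over all genes tested. The chaperones Hspd1 and Hspe1 share 1 promoter read in opposite directions, which is shown from the side of Hspd1 with capitals on GAA and its complement TTC, because the same stretch lies before a gene past the threshold and a gene that missed it.
Hspd1, chr1:55088034-55088101, minus strand: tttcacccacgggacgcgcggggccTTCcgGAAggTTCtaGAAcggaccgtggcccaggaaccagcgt

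**Figure D2:**
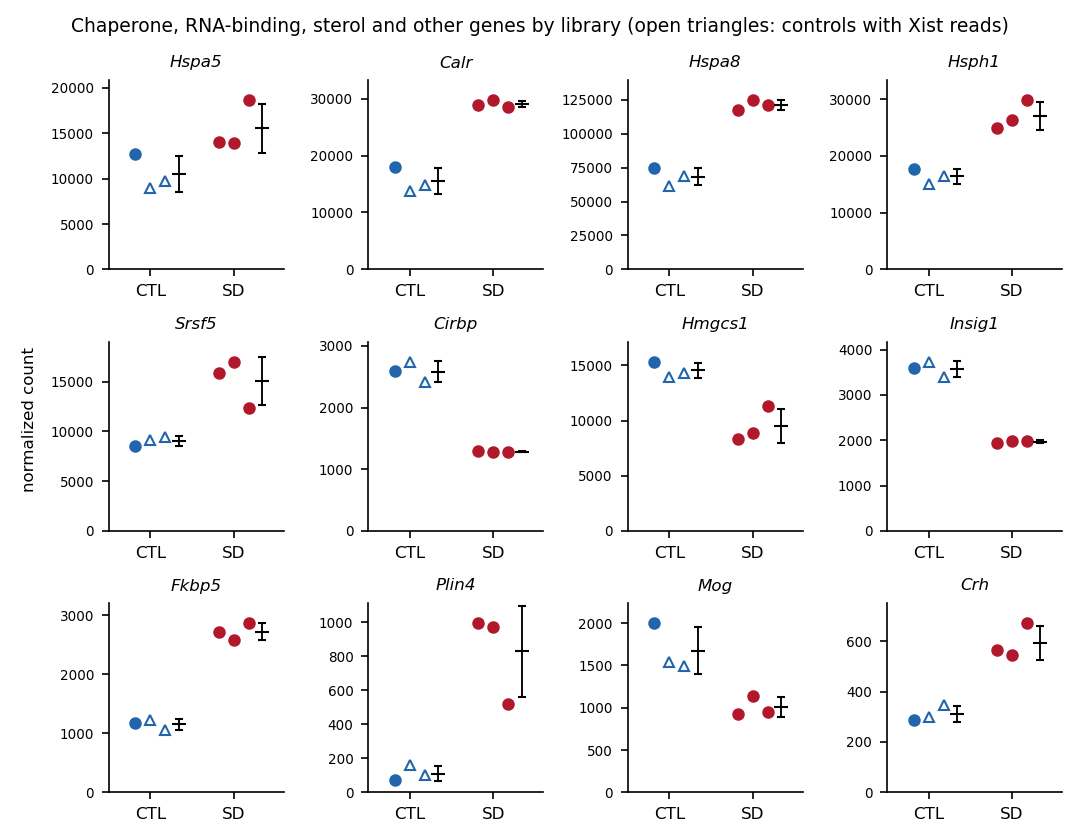
Normalized counts of 12 chaperone, RNA-binding, sterol and other genes in each library, controls in blue and SD in red, with open triangles for the controls that held Xist reads and the mean ± SD of each group of 3 beside the points. In all 12 panels the highest library of the lower group lies below the lowest library of the other, the gap being narrowest for Hspa5. The genes drawn were chosen with their values known. The groups did not overlap for 40.2% of all genes tested and for 5079 of the 5186 past the threshold.

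Genes that neurons induce with activity fell into 2 kinds in the comparison of 6 libraries. The division was weaker in the 8 libraries without Xist reads, where 8 of 12 Egr, Nr4a and related factors and 5 of 10 AP-1 factors were higher. The effectors that act at synapses and outside the cell rose, 10 higher and 1 lower of 17 (median 0.42), with 11 higher and 1 lower in the 8 libraries. Scg2, a secretory granule protein cleaved to secretoneurin, stood at 9308, 9147 and 10369 in the controls against 16709, 18826 and 22418 normalized counts after SD (log2 fold change 0.999 ± 0.10, adjusted p = 0.000290). Ptgs2, the inducible cyclooxygenase, stood at 797, 699 and 849.7 in the controls against 1452, 1425 and 1732 normalized counts after SD (log2 fold change 0.97 ± 0.10, adjusted p = 0.000293). Inhba, which forms activin A, stood at 369, 259 and 282 in the controls against 544, 535 and 658 normalized counts after SD (log2 fold change 0.94 ± 0.14, adjusted p = 0.00154). Their groups did not overlap. The scaffold Homer1, the neurotrophin Bdnf, the pentraxin Nptx1, the surface protein Nrn1, the granule protein Vgf and the kinase Plk2 rose by 0.59, 0.60, 0.46, 0.52, 0.41 and 0.29. The lower member was Nptxr, at 1828, 630.5 and 597 in the controls against 381, 200.3 and 68.6 normalized counts after SD. Its log2 fold change was -2.34 ± 0.56, and 16.2% of its stretches are shared with Npcd.

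Several fast immediate early genes differed widely among the controls themselves. Arc, which shapes AMPA receptor traffic at active synapses, stood at 5212, 16780 and 23940 in the controls against 22141, 23776 and 24384 normalized counts after SD. Control 03 lay within the SD range, control 01 far below it, and the difference of 0.87 ± 0.42 missed the threshold (adjusted p = 0.157). Fos stood at 699, 2396 and 3317 in the controls against 1222, 1424 and 1960.5 normalized counts after SD, so that control 01 was the lowest library of all and controls 02 and 03 the highest (-0.23 ± 0.45, adjusted p = 0.737). Egr1, Nr4a1, Dusp1, Dusp6, Junb and Per1 had the same order among controls, with control 01 lowest and control 03 highest. In the 8 libraries without Xist reads, where control 01 is the only wild-type control, Arc was at 1.96 (adjusted p = 7.23e-06), Egr1 at 0.93 (adjusted p = 0.000239) and Fos at 0.73 (adjusted p = 0.0127). The part of SD and that of whatever set controls 02 and 03 apart cannot be told apart for these genes.

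Of the 12 Egr, Nr4a and related factors, 2 were higher and 2 lower (median 0.27), and 8 higher and 1 lower in the 8 libraries. Egr3 stood at 11472, 8364 and 9544 in the controls against 18605, 19287 and 21135 normalized counts after SD. It rose by 1.02 ± 0.10 (adjusted p = 0.000293) with no overlap, and control 01 was its highest control. Egr4 fell, from 1116, 1720.4 and 1734 in the controls to 824, 709.5 and 843 after SD (log2 fold change -0.92 ± 0.15, adjusted p = 0.00254), and Nr4a2 fell, at -0.51 on the log2 scale. Among 10 AP-1 factors, Maff and Fosl1 were higher at 0.86 ± 0.18 and 1.35 ± 0.44, the second on at most 11.1 normalized counts in any library and with 54.9% of its stretches shared with Ccdc85b, and Jun and Jund were lower at -0.48 ± 0.12 and -0.60 ± 0.08. Of the stretches of Jund, 43.5% are shared with Gm11175. Of the 10 AP-1 factors, 5 were higher and 1 lower in the 8 libraries (median 0.30), with Fos among the higher.

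The brakes on MAP kinase signaling, the dual-specificity phosphatases and the Sprouty and Spred proteins, were 7 higher and 1 lower of 15 (median 0.23), and 9 higher and 1 lower in the 8 libraries. Dusp4, a nuclear ERK phosphatase, stood at 378, 375 and 465 in the controls against 767, 776 and 1042 normalized counts after SD (log2 fold change 1.08 ± 0.13, adjusted p = 0.000715). Spred2 stood at 2786, 2704 and 3587 in the controls against 5509, 6073 and 4975 normalized counts after SD (log2 fold change 0.87 ± 0.11, adjusted p = 0.000740). Every SD library lay above every control for both. Spred3, which is not on the list and was named after its values were seen, rose by 1.09 ± 0.06 (adjusted p = 3.37e-05), from 2657, 2476 and 2526 to 5486, 5406 and 5376. The phosphatase of stress kinases Dusp8 fell, at -0.30. Of 18 kinases and deacetylases that have been tied to sleep need, 4 were higher and 2 lower (median 0.036). The salt-inducible kinases Sik2 and Sik3 rose by 0.63 and 0.34, and the deacetylase Hdac4 stood at -0.01 ± 0.06 (adjusted p = 0.915).

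**Figure D3:**
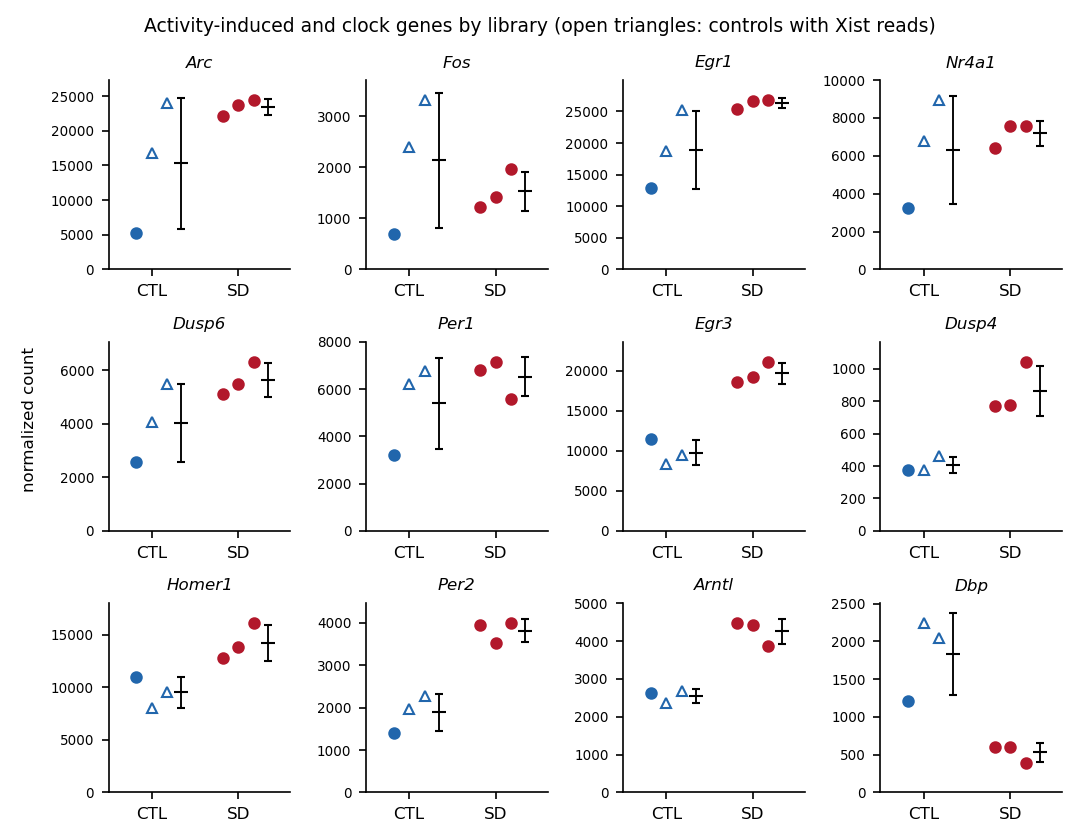
Normalized counts of 12 activity-induced and clock genes in each library, controls in blue and SD in red, with open triangles for the controls that held Xist reads and the mean ± SD of each group of 3 beside the points. For Arc, Fos, Egr1, Nr4a1, Dusp6 and Per1 the filled control stands well below the open ones, whereas for Egr3, Dusp4, Homer1, Per2, Arntl and Dbp all 3 controls lie on 1 side of the SD libraries.

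Core clock genes past the threshold were mostly higher and output genes mostly lower. Of 12 core clock genes 6 were higher and 2 lower (median 0.29), while of 14 output and secondary loop genes 2 were higher and 7 lower (median -0.33). The activator Arntl stood at 2633, 2352 and 2671 in the controls against 4473, 4419 and 3883 normalized counts after SD (log2 fold change 0.74 ± 0.08, adjusted p = 0.000293). Per2, a repressor that waking is known to raise, stood at 1414, 1979.8 and 2272 in the controls against 3957, 3516 and 3993 normalized counts after SD (log2 fold change 1.04 ± 0.14, adjusted p = 0.00103). The groups were apart in both genes, and control 01 was the lowest control for Per2. Npas2, Cry1, Clock and the kinase Csnk1e rose by 0.69, 0.38, 0.33 and 0.26, Per3 and the ligase subunit Fbxl21 fell, at -0.26 and -0.42, and Per1 stood at 0.34 ± 0.23 (adjusted p = 0.314).

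Among outputs, Dbp had the largest fall. It stood at 1211, 2239 and 2043 in the controls against 599.7, 605 and 385 normalized counts after SD (log2 fold change -1.77 ± 0.23, adjusted p = 0.000831), with every SD library below every control, and 25.4% of its stretches are shared with the overlapping Sphk2. The repressor Nr1d1, the related factor Tef, Ciart and the deubiquitinase Usp2 fell, at -0.46, -0.36, -0.90 and -0.58, whereas Bhlhe40 and Nfil3, repressors that oppose Arntl and Dbp, rose by 0.81 and 0.45. Part of this count moved with the controls: for Ciart control 01 stood at 402 against 903 and 914 in the others, within the reach of the SD libraries (371, 403 and 341). In the 8 libraries the outputs were 2 higher and 3 lower, Dbp was at -1.16 (adjusted p = 0.00339) and Nr1d1 was at -0.26 (adjusted p = 0.0611).

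Genes that glucocorticoids induce were 13 higher and 2 lower of 26 (median 0.39), and 15 higher and 1 lower with a median of 0.75 in the 8 libraries. Fkbp5, which holds the glucocorticoid receptor in a low-affinity state, stood at 1178, 1232 and 1049 in the controls against 2725, 2586 and 2865 normalized counts after SD (log2 fold change 1.24 ± 0.08, adjusted p = 6.65e-05). Zbtb16, a zinc finger repressor, stood at 1942, 1704 and 2099.5 in the controls against 3761, 4389.8 and 3831 normalized counts after SD (log2 fold change 1.06 ± 0.09, adjusted p = 0.000150). Tsc22d3, the leucine zipper GILZ, stood at 2533, 3415 and 3479.5 in the controls against 4784, 5568 and 5009.7 normalized counts after SD (log2 fold change 0.72 ± 0.11, adjusted p = 0.00199). In all 3 the lowest SD library exceeded the highest control. Map3k6, Mertk, Klf9 and the metallothionein Mt2 rose by 1.13, 0.75, 0.54 and 0.46, and Plin4, Hif3a, Sult1a1 and Cdkn1a, described above, belong to the list. The kinase Sgk1 stood at 1956, 3269.7 and 3049.5 in the controls against 3403, 4676 and 2778 normalized counts after SD, with overlap (0.39 ± 0.21, adjusted p = 0.192). Ddit4, an inhibitor of mTOR that glucocorticoids also induce, fell, at -0.36 with adjusted p = 0.0288. The receptors themselves, Nr3c1 and Nr3c2, were at -0.18 ± 0.07 and -0.11 ± 0.08, short of the threshold.

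Genes for RNA processing rose more often than they fell. Of 22 genes for SR splicing factors, their kinases and related proteins, 11 were higher and 0 lower (median 0.27), and 16 higher and 0 lower in the 8 libraries. Srsf5 stood at 8493, 9084 and 9455 in the controls against 15857, 16988 and 12335 normalized counts after SD (log2 fold change 0.73 ± 0.11, adjusted p = 0.00134). Its SD libraries all lay above the controls, and library 04 was the nearest to them. Tra2a, Srrm1, Srsf10 and the SR kinase Clk1 rose by 0.47, 0.43, 0.42 and 0.37. Among 24 hnRNPs, which package nascent RNA, 12 were higher and 2 lower. Hnrnph1 rose from 9330.4, 9699 and 10567 to 15884, 16390 and 15618 (log2 fold change 0.70 ± 0.06, adjusted p = 0.000213), and Hnrnpa0 fell from 5496, 5402 and 5284 to 2549, 2334 and 3340.3 (log2 fold change -0.99 ± 0.11, adjusted p = 0.000431). Hnrnpa1 rose by 0.88 ± 0.11, with 25.4% of its stretches shared with other annotated genes. Cirbp, an RNA-binding protein induced by mild cooling, stood at 2592, 2741 and 2414 in the controls against 1288, 1286 and 1280.1 normalized counts after SD, the SD libraries nearly equal and all below the controls (log2 fold change -1.01 ± 0.07, adjusted p = 9.18e-05). Rbm3, the other cooling-induced protein, was at -0.32 ± 0.12 (adjusted p = 0.0822).

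Remodellers and histone-modifying genes past the threshold were also mostly higher. Of 27 SWI/SNF, CHD and INO80 remodellers 11 were higher and 0 lower (median 0.14), and 7 higher and 1 lower in the 8 libraries. Chd2, a helicase of active promoters, stood at 4048, 3335 and 3469 in the controls against 5857, 5996 and 4902 normalized counts after SD (log2 fold change 0.63 ± 0.09, adjusted p = 0.00156), and the BAF subunit Smarce1 stood at 1939, 1857 and 1952 in the controls against 2616, 2752 and 2483 normalized counts after SD (log2 fold change 0.45 ± 0.06, adjusted p = 0.00111). No library of either gene crossed between the groups. Histone methyltransferases and demethylases were 14 higher and 4 lower of 39. The demethylase Kdm6b and the methyltransferases Dot1l and Kmt2a rose by 0.69, 0.55 and 0.48, and Ehmt2 and Kdm1a fell, at -0.40 and -0.28. The count includes the Y-linked Kdm5d among the higher and Kdm6a, which escapes X inactivation, among the lower, and both moved with the sex of the controls. In the DNA methylation list of 16 genes, 7 were higher and 2 lower, with the dioxygenase Tet3 at 0.49 ± 0.06 and the demethylation factor Gadd45g at -0.54 ± 0.11. Without Xist-bearing controls, in the 8 libraries, the histone list was 13 higher and 4 lower and the DNA methylation list 5 higher and 3 lower. Of 356 Zfp zinc finger genes, 80 (22.5%) were higher and 22 (6.18%) lower, those past the threshold lying between -1.05 for Zfp459 and 0.73 for Zfp143, which binds at promoters. Zfp459 was at -0.34 in the 8 libraries (adjusted p = 0.362). Replication-dependent histone genes were 2 higher and 4 lower of 54 (median -0.11).

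The translation machinery was split by component. Ribosome biogenesis and RNA polymerase I genes were 12 higher and 2 lower of 33 (median 0.15), and 14 higher and 2 lower in the 8 libraries. Dkc1, the pseudouridine synthase dyskerin, stood at 1059.9, 1228 and 1325 in the controls against 1763, 1925 and 1752 normalized counts after SD (log2 fold change 0.60 ± 0.09, adjusted p = 0.00142), with no overlap. The nucleolar proteins Npm1 and Ncl rose by 0.40 and 0.23. Initiation factors were 15 higher and 4 lower of 51, from -0.56 for Eif3f to 0.54 for Eif5b, the GTPase that joins the ribosomal subunits. Cytosolic ribosomal proteins were 11 higher and 22 lower of 83 (median -0.04), and mitochondrial ribosomal proteins 21 higher and 10 lower of 77 (median 0.023). Within the same cytosolic particle Rps24 rose from 8024, 8126 and 8429 to 14669, 15169 and 12876 (log2 fold change 0.79 ± 0.07, adjusted p = 0.000178) while Rps27a fell from 4894, 4404 and 4272 to 2007, 1863 and 2841 (log2 fold change -1.04 ± 0.13, adjusted p = 0.000830), and 31% of the stretches of Rps27a are shared with other annotated genes. Initiation factors in the 8 libraries were 13 higher and 4 lower, cytosolic ribosomal proteins 11 higher and 26 lower and mitochondrial ones 25 higher and 8 lower. The spliceosome core was divided likewise, 12 higher and 7 lower of 40, with Snrpd3 at 0.74 ± 0.09 and Snrpg at -0.68 ± 0.14, both partners in the Sm ring.

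**Figure D4:**
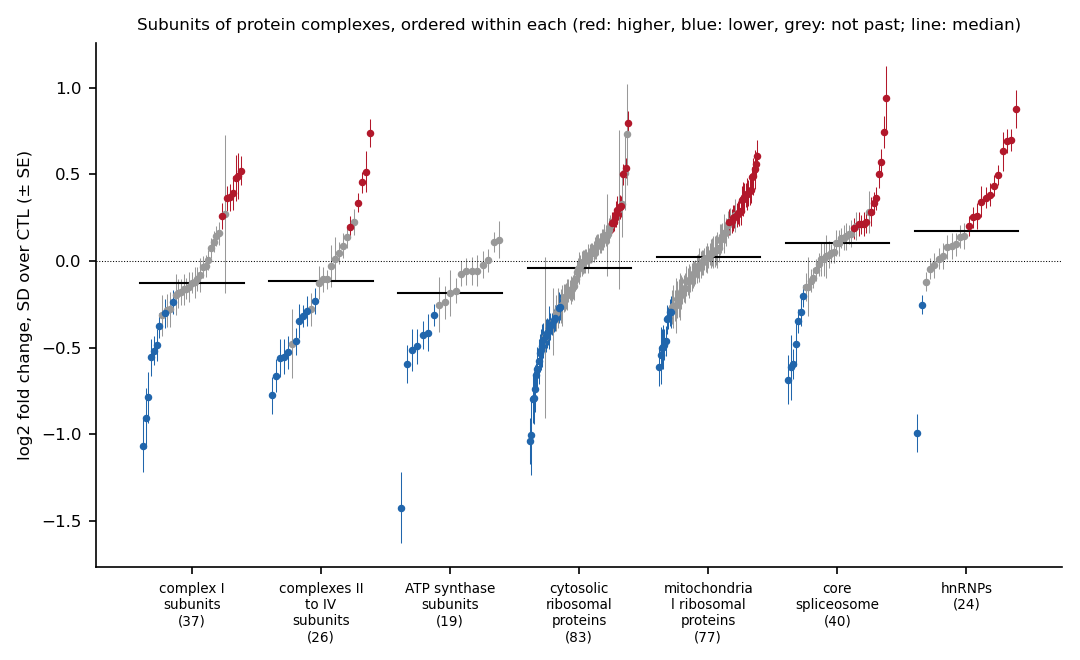
Log2 fold change of SD over control (vertical axis, bars ± SE) for the subunits of 7 protein complexes and protein classes, ordered within each from lowest to highest, with the number tested in parentheses. Red and blue points passed the threshold, grey points did not, and the black line is the median of each. Red and blue points stand together in all classes except ATP synthase, which holds 7 blue points and no red one.

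Respiratory chain genes showed the same division. Complex I subunits were 7 higher and 9 lower of 37, those of complexes II to IV 5 higher and 10 lower of 26, and those of ATP synthase 0 higher and 7 lower of 19 (median -0.18). Ndufa2 and Ndufa3, accessory subunits of complex I, moved apart. Ndufa2 fell from 1859, 1987 and 1956 to 809.8, 770.3 and 1258 (log2 fold change -1.07 ± 0.15, adjusted p = 0.00127) and Ndufa3 rose from 1897, 2212 and 2028 to 3123, 3072 and 2626 (log2 fold change 0.52 ± 0.08, adjusted p = 0.00210). In complexes III and IV, Uqcrb rose from 2400.1, 2430.5 and 2825 to 4046, 4590.1 and 4116 (log2 fold change 0.74 ± 0.08, adjusted p = 0.000338) and Cox5a fell from 5754, 5135 and 5804 to 3189.9, 2769.7 and 3878 (log2 fold change -0.77 ± 0.11, adjusted p = 0.00112). The groups did not overlap in any of the 4, and SD library 04 was the closest to the controls in Ndufa2, Ndufa3 and Cox5a. Besides Atp5e, the ATP synthase members that fell were Atp5g3, Atp5g1, Atp5j2, Atp5s, Atp5k and Atp5d, at -0.59 to -0.31, while the catalytic subunits Atp5a1 and Atp5b were at 0.00 ± 0.07 and -0.17 ± 0.07. Complex I in the 8 libraries was 7 higher and 9 lower, complexes II to IV 7 higher and 9 lower and ATP synthase 0 higher and 6 lower. Of 25 genes of the tricarboxylic acid cycle, 1 was higher and 1 lower.

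Cholesterol synthesis genes fell. Of 26 members 17 were lower and 1 higher (median -0.44), and 16 lower and 1 higher in the 8 libraries. Insig1, which holds SREBP precursors in the ER, stood at 3605, 3731 and 3389.6 in the controls against 1945, 1987 and 1983 normalized counts after SD (log2 fold change -0.86 ± 0.06, adjusted p = 0.000135). Hmgcs1, the synthase at the head of the mevalonate path, stood at 15335, 13993 and 14357 in the controls against 8322, 8903 and 11295 normalized counts after SD (log2 fold change -0.63 ± 0.10, adjusted p = 0.00220). Every SD library lay below every control in both genes, with library 04 the nearest for Hmgcs1. Further along the path Mvk, Mvd, Fdps, Sqle, Lss and Dhcr7 fell, at -0.71, -0.84, -0.48, -0.56, -0.43 and -0.67, and the master factor Srebf2 fell, at -0.32. Cyp51 and Idi1 were at -0.11 ± 0.06 and -0.26 ± 0.10, and the sterol isomerase Ebp was the member that rose, by 0.34. Of 10 markers of mature oligodendrocytes, cells that make much sterol, 7 were lower in the same comparison (median -0.61), and their part in the fall of these genes was not tested.

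Glycolysis and the transport of glucose and lactate did not move as a group, 5 higher and 7 lower of 30. Pfkfb3, which makes the activator of phosphofructokinase, stood at 1843, 1562 and 2174 in the controls against 3489, 3633 and 3642 normalized counts after SD (log2 fold change 0.96 ± 0.10, adjusted p = 0.000337), with no overlap. The glucose carrier Slc2a1 rose by 0.33 ± 0.09, and the lactate carriers Slc16a1 and Slc16a3 fell, at -0.77 and -0.82. Among 12 lipid droplet genes Plin4 was the member that rose, while Hilpda, Dgat1, Dgat2 and Plin3 fell, at -0.59 to -0.43. Of 23 hypoxia and angiogenesis genes 7 were higher and 1 lower, with Vegfa rising from 3928, 4547 and 4829.6 to 6502, 6114 and 5989 (log2 fold change 0.49 ± 0.08, adjusted p = 0.00214) and without overlap.

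Counts for receptors at synapses differed between the 6 libraries and the 8 without Xist reads. AMPA and kainate receptor genes with their partners were 7 higher and 2 lower of 19, and NMDA receptors and scaffolds 8 higher and 0 lower of 21, but 3 higher and 4 lower and 4 higher and 1 lower in the 8 libraries. The AMPA auxiliary subunit Cacng2 (stargazin) stood at 3476, 3020.4 and 3656 in the controls against 5731, 6407 and 5040.2 normalized counts after SD (log2 fold change 0.76 ± 0.10, adjusted p = 0.000787) with no overlap, and in the 8 libraries at 0.80. Grin2b, an NMDA receptor subunit, stood at 6482, 4896 and 4444 in the controls against 7213, 7340.1 and 6468 normalized counts after SD, where control 01 overlapped the SD libraries (log2 fold change 0.43 ± 0.12, adjusted p = 0.0252), and in the 8 libraries at 0.13 (adjusted p = 0.508). Gria1 rose by 0.32 ± 0.09 and in the 8 libraries stood at 0.12 (adjusted p = 0.418). Of 7 metabotropic glutamate receptors 2 were higher and 3 lower, with the presynaptic autoreceptor Grm2 falling from 3723, 3997 and 3949.9 to 2926, 2799 and 2517 (log2 fold change -0.50 ± 0.07, adjusted p = 0.00103). GABA-A receptor genes were 4 higher and 5 lower of 21, and 3 higher and 3 lower in the 8 libraries. Gabrd, the subunit of extrasynaptic receptors for tonic inhibition, fell from 4689, 4720.5 and 5166 to 3333, 3215 and 3558 (log2 fold change -0.53 ± 0.06, adjusted p = 0.000699), and the inhibitory scaffold gephyrin (Gphn) rose by 0.35 ± 0.06. Of 47 voltage-gated potassium channel genes 4 were higher and 9 lower, and Kcnd1, a channel of the A-type current, fell, at -0.55.

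Adenosine, which accumulates with waking and acts on neurons through A1 receptors, had 1 higher and 5 lower of 13 receptor and metabolic genes (median -0.25), and 1 higher and 6 lower in the 8 libraries. Adora1, the A1 receptor, stood at 12487, 12756 and 14114 in the controls against 19851, 21366 and 15249 normalized counts after SD (log2 fold change 0.51 ± 0.11, adjusted p = 0.00902), and 17.9% of its stretches are shared with Mybph. Adk, the kinase that clears adenosine in astrocytes, stood at 2362, 2399 and 2391 in the controls against 1858, 1812 and 2034 normalized counts after SD (log2 fold change -0.33 ± 0.06, adjusted p = 0.00491). The groups did not overlap in either gene. Adora2b fell, at -0.85. Adora2a was also lower, but its counts of 838, 503 and 103 in the controls came down, in control 03, to the SD values of 98.4, 104 and 96.8, and the striatal markers Drd2 and Gpr6 had the same order among controls (310.3, 126 and 35.7, and 126, 119 and 48.4). The part of tissue from beneath the cortex in this difference was not tested.

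Of 16 neuropeptide genes 3 were higher and 1 lower. Crh, the corticotropin-releasing hormone, which cortical interneurons make, stood at 288, 299 and 346 in the controls against 564, 543 and 671 normalized counts after SD (log2 fold change 0.93 ± 0.11, adjusted p = 0.000688). Vip and Npy rose by 0.41 ± 0.09 and 0.28 ± 0.08, and Cartpt fell, at -0.81 (-0.46 in the 8 libraries, adjusted p = 0.102), whereas Sst was at -0.08 ± 0.07 and Cck at -0.14 ± 0.06. Neurotrophin and growth factor genes were 12 higher and 2 lower of 32, and 10 higher and 3 lower in the 8 libraries. The insulin receptor substrate Irs2 stood at 1656, 1729 and 1785 in the controls against 2640.1, 2551 and 2494 normalized counts after SD (log2 fold change 0.57 ± 0.06, adjusted p = 0.000324), and Igf1, its receptor gene Igf1r, Fgfr1 and the neurotrophin receptor Ntrk3 rose by 0.32, 0.30, 0.46 and 0.39. The binding proteins Igfbp2 and Igfbp5 fell, at -0.56 and -0.41, and Igfbp3 and Igfbp4 rose by 0.43 and 0.55. Among 53 receptors for serotonin, noradrenaline, dopamine, histamine, acetylcholine and orexin, 6 were higher and 9 lower, with Htr2a, the main excitatory serotonin receptor of cortex, rising by 0.51 ± 0.09 and Htr1b by 0.96 ± 0.18.

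The extracellular matrix was lower on balance, 22 lower and 6 higher of 63 genes (median -0.26), and 23 lower and 6 higher in the 8 libraries. Bcan, the brevican of perineuronal nets, stood at 13857, 14682 and 13231 in the controls against 10264, 9629 and 9651 normalized counts after SD (log2 fold change -0.50 ± 0.06, adjusted p = 0.000741), with no overlap. The fibrillar collagens Col1a1, Col1a2 and Col3a1 fell, at -0.71, -0.79 and -0.71, and tenascin-C (Tnc), at -0.65. The basement membrane chains Col4a1 and Col4a2 and fibronectin (Fn1) rose by 0.35, 0.50 and 0.32. Markers of meningeal fibroblasts, which make fibrillar collagens, were 0 higher and 3 lower of 7, with summed counts of 4673 to 5007 in the controls and 3011 to 4365 after SD, and their part in the fall of the collagens was not tested. In bulk tissue, fewer cells of a type and less RNA per cell cannot be told apart.

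Among markers of cell types, those of mature oligodendrocytes stood out with 7 lower and 0 higher of 10 (median -0.61), and 8 lower and 0 higher in the 8 libraries. Opalin, a myelin paranode protein, stood at 662, 474 and 488 in the controls against 270.4, 279.9 and 213 normalized counts after SD (log2 fold change -1.08 ± 0.15, adjusted p = 0.00114). Cnp, the myelin phosphodiesterase, stood at 12077, 8384 and 8304 in the controls against 4968, 5197 and 5225 normalized counts after SD (log2 fold change -0.88 ± 0.12, adjusted p = 0.00113). Mog stood at 1998, 1539 and 1491 in the controls against 926, 1141 and 954 normalized counts after SD (log2 fold change -0.73 ± 0.12, adjusted p = 0.00224). Control 01 was the highest in all 3 and no SD library reached the lowest control. The abundant myelin RNA Mbp was at -0.01 ± 0.14 (adjusted p = 0.951), and the summed counts of the 10 markers overlapped (115610 to 147522 and 92716 to 127313). In AcPb-/- mice 2 of the same 10 were lower. In controls 01, 02 and 03 the oligodendrocyte markers summed to 147522, 122303 and 115610, and the striatal markers to 27240, 19150 and 13132. Excitatory neuron markers had the same order (103441, 101071 and 94340), as did those of astrocytes, microglia and oligodendrocyte precursors. The sums of interneuron (57499, 58556 and 58917) and endothelial markers (38505, 38699 and 39644) had the reverse order. Control 01 is the only wild-type control in the 8 libraries. The part of tissue from beneath the cortex in the oligodendrocyte difference was not tested. Markers of microglia were 1 higher and 2 lower of 10, those of astrocytes 1 higher and 2 lower of 10, and those of excitatory neurons 3 higher and 2 lower of 10. In the 8 libraries microglial markers were 0 higher and 4 lower, those of astrocytes 1 and 1 and those of excitatory neurons 2 and 2. In AcPb-/- mice microglial markers were 0 higher and 5 lower. Interneuron markers were 4 higher and 1 lower of 10, endothelial markers 4 higher and 2 lower of 10, pericyte and smooth muscle markers 3 higher and 0 lower of 8, and striatal markers 0 higher and 3 lower of 10. Ependymal markers, 4 in all, had a median of -1.18 with none past the threshold and summed to 276 to 473 in the controls and 322 to 413 after SD. In the 8 libraries they were 0 higher and 2 lower (median -1.93), and in AcPb-/- mice 0 higher and 0 lower (median -0.58). Neurod6, a transcription factor of cortical pyramidal neurons, rose from 2422, 2442 and 2879 to 4548, 5380.1 and 4919 (log2 fold change 0.94 ± 0.08, adjusted p = 0.000189), while the glutamate transporter Slc17a7 was at -0.24 ± 0.09 and the GABA-synthesizing Gad1 at -0.05 ± 0.07. Neutrophil markers summed to 24.6 to 41.5 normalized counts in the controls and 42.8 to 141 after SD. Of 22 interferon-stimulated genes, 2 were higher and 2 lower.

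The genes past the threshold differed in length and base composition. Protein-coding genes were ordered by their longest annotated transcript and divided into 10 bins of equal number. Of the shortest bin 8.19% were higher and 12.7% lower, and of the longest bin 23.2% were higher and 9.66% lower. By GC content, the lowest bin held 15.98% higher and 7.91% lower and the highest bin 6.72% higher and 29.1% lower. The median transcript was 3788 bases long in the higher genes, 3042 in the lower and 3074 in those that did not pass, and the median GC content was 48.1%, 53.5% and 49.6%. After removal of the trends with length and GC content in each library, 5168 genes passed, 2784 higher and 2384 lower, and 4372 of them were among the 5186. Depth moved with SD in these libraries, and its part in the trend was not tested.

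**Figure D5:**
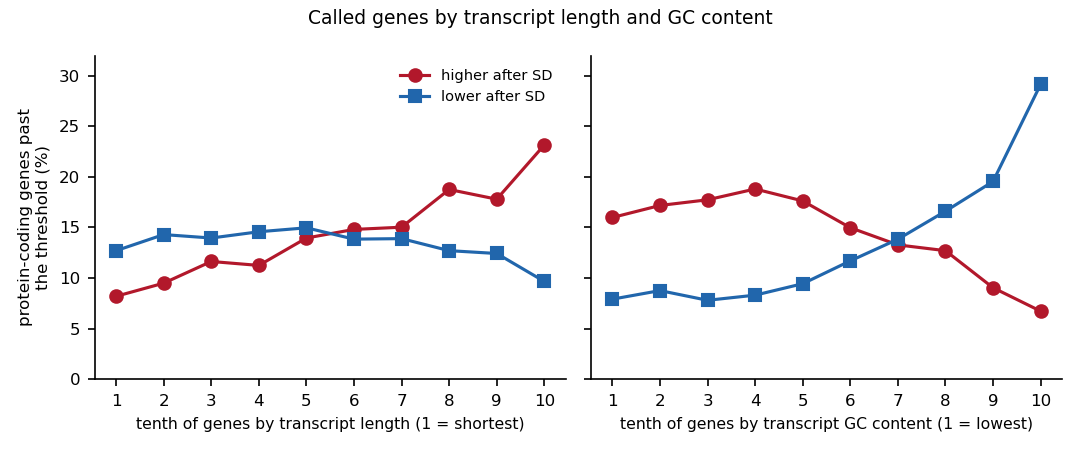
Percentage of protein-coding genes past the threshold (vertical axis) in 10 equal bins of all protein-coding genes by transcript length (left) and transcript GC content (right), red circles for higher and blue squares for lower after SD. The share of higher genes goes from 8.19% to 23.2% with length, and the share of lower genes from 7.91% to 29.1% with GC content.

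The AcPb-/- libraries, which share none with the wild type, offer the same contrast in another genotype. Their controls had the same mixture, since 2 of 3 held Xist reads, and their SD libraries were also the deeper ones, so that both moved with SD there as well. In these mice 2892 genes were higher and 2741 lower of 20574 tested. Of the 2690 genes higher in the wild type 2654 had a positive difference in AcPb-/- mice and 2037 were past the threshold, of the 2496 lower genes 2440 were negative and 1833 past it, and 1 gene was past the threshold in opposite directions. All 30 genes of the largest changes had the same sign. The fit of 12 libraries that helped to choose them includes the AcPb-/- libraries, so their agreement is no independent check. Side by side, wild type and AcPb-/-, the log2 fold changes were 0.92 and 1.17 for Calr, 0.57 and 0.87 for Hspa5, 0.74 and 0.63 for Arntl, 1.24 and 1.18 for Fkbp5, -0.86 and -0.63 for Insig1 and -1.01 and -1.27 for Cirbp. The difference of the effects was tested as the interaction of genotype and SD in limma over 12 libraries. At an adjusted p under 0.05 it was called for 0 of 20978 genes, with 839 at an unadjusted p under 0.05 (711 by edgeR, which also called 0). A p that misses the threshold does not show that the genotypes respond alike.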

How the data were processed

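Somatosensory cortex RNA was sequenced by the authors from TruSeq Stranded mRNA libraries, aligned with HISAT2 2.2.1 to mm10 and counted per gene (featureCounts in the processing notes, HTSeq in the paper). Strand setting and annotation are not given in the sources used here. The deposited signal holds, for every gene, reads scaled by the library's size factor from DESeq2 1.31.16. Of 293052 values of 12 libraries, 100.0% came within 0.01 of a whole read. The authors' own fold changes and p-values were not used, nor were 3 of the 5 deposited tables.

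Genes read in any library were tested with limma 3.58.1 (R 4.3.3), after adding 1 and taking log2, with a trended variance, two-sided, Benjamini-Hochberg, 4 residual degrees of freedom. Fold changes are on that scale, which understates low genes. The replicates are separate mice by their labels, and p-values measure the spread between these samples. Lists (93) and named genes were chosen with earlier results of these data known. Named are the 15 highest and 15 lowest autosomal genes (mean of at least 100, groups apart, past the threshold also in 12 libraries with a term for Xist), the key, highest and lowest called members of each list, Xist and Y-linked genes, and other list members chosen after their values were seen. Some of these genes are not reported here. Near-copies were counted as 100-base exon stretches (GENCODE M21, GRCm38) found in another gene. edgeR 4.0.16 and DESeq2 1.42.0 were run on recovered reads. The fits were tried on simulated reads with the same spread for every gene and no sex difference among controls. That setting differs from these libraries. Python 3.11.15, NumPy 2.4.6, pandas 2.3.3 and matplotlib 3.10.9 were used.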

Additional observations from a re-analysis of the deposited data

How the results depend on the processing

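Of the 5186 genes past the threshold, 3408 also passed in 12 libraries with a term for Xist and 4111 in the 8 libraries. The count of 5186 genes past the threshold stayed within 1.5 times of itself with genes of a mean of at least 10, pseudocounts of 0.1 and 10, TMM factors, edgeR, DESeq2, thinned reads, GC content and length trends removed and the fits of 12 and 8 libraries, where it ranged from 4057 to 5916. It was 2360 at an adjusted p under 0.01, 2536 without a variance trend and 679 with a term for Xist in the 6 libraries, and 0 without the control libraries with Xist reads (5068 at an unadjusted p under 0.05), a fit with 2 residual degrees of freedom. Leaving out 1 library gave 2699 (without control 02) to 6222 (without SD library 04), with 2836 without SD library 02 and 2941 without SD library 01. With the replicate block, on the shared numbers 01 and 02, it was 0 (6889 at an unadjusted p under 0.05) on 1 residual degree of freedom. The deviations of same-numbered libraries correlated by 0.109 for 01 and -0.0866 for 02. Those of differently numbered libraries ran from -0.148 to 0.132. So few correlations cannot show whether same-numbered libraries share more than a number. The interaction count was 0 throughout except for 9 genes without CTL-AcPb-/- library 03, a control without Xist reads.

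Some named values changed sign. Ddx3y went to -0.16 without the control libraries with Xist reads and with a term for Xist in the 6 libraries, to -0.13 with that term in 12 libraries and to -0.19 in the 8 libraries, and Kdm5d to -0.0141 with the term in 12 libraries. Dusp1 went to 0.63 with the term in 12 libraries and to 0.58 in the 8 libraries, where Fos went to 0.73 and Hist2h2ac to 0.15. With GC content and length trends removed, the log2 fold change of Egln2 went to 0.0455 and the log2 fold change of Mt3 to 0.0336. Among the autosomal genes named as changed, Atp5k, Cartpt, Ciart, Col1a2, Col3a1, Col4a1, Ddit4, Dnajc10, Fbxl21, Gria1, Grin2b, Igfbp4, Jun, Mt2, Nr1d1, Nr4a2, Pcdhb3, Per3, Sik3, Syvn1, Thbs1 and Zfp459 missed the threshold in the 8 libraries. Bhlhe40, Clk1, Dnajc3, Plk2, Prg4 and Tsc22d3 were more than 1.5 times larger there, and Col8a2, Dbp, Igfbp2, Npas2, Ntrk3 and Slc4a11 more than 1.5 times smaller.

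The comparison rests on 3 mice a group, with 2 controls against their label for sex, and on libraries whose depth differed with SD. Polyadenylated RNA of whole tissue was counted, so that cell number and RNA per cell cannot be told apart, and genes sharing sequence or overlapping others carry reads whose assignment is not given in the sources used here. Counts of few reads, such as those of neutrophil markers, limit what can be seen of rare cells. Fold changes on the log2 scale after adding 1 understate low genes.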

Other observations

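Genes of protein turnover were mixed. Proteasome subunits were 6 higher and 6 lower of 39, lysosome and V-ATPase genes 5 higher and 8 lower of 52, autophagy genes 2 higher and 8 lower of 33, and ubiquitin genes and USP deubiquitinases 14 higher and 9 lower of 56, against 13.2% higher and 12.2% lower over all genes tested. Map1lc3a, the LC3 protein of autophagosome membranes, stood at 6202, 6436 and 6076 in the controls against 3671, 3492 and 4754 normalized counts after SD (log2 fold change -0.66 ± 0.10, adjusted p = 0.00169), every SD library below every control. Mitochondrial aminoacyl-tRNA synthetases were 0 higher and 5 lower of 17, while their cytosolic counterparts were 4 higher and 4 lower of 21. Genes of the pentose phosphate path and NADPH supply were 0 higher and 3 lower of 10.

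Clustered protocadherins, the surface proteins by which neurons tell their own branches apart, were 2 higher and 13 lower of 58 (median -0.18), and 2 higher and 14 lower in the 8 libraries without Xist reads. Pcdhb4 and Pcdhb3 fell, at -0.72 and -0.69. Pcdhb3 in the 8 libraries was at -0.23 (adjusted p = 0.231). Members of the alpha and gamma clusters share exons, so that single members of those are uncertain. Wnt and Notch signaling genes were 2 higher and 8 lower of 40, and axon guidance genes 7 higher and 12 lower of 63. Among 19 long noncoding RNAs 6 were higher and 2 lower. Meg3, an imprinted nuclear RNA of neurons, stood at 234732, 234000 and 231428 in the controls against 346417, 350261 and 272948 normalized counts after SD (log2 fold change 0.46 ± 0.12, adjusted p = 0.0178), again with SD library 04 the nearest to the controls, and Malat1 at 36714, 34439 and 51355 in the controls against 58822, 68546 and 36175 normalized counts after SD, where the groups overlapped (0.39 ± 0.22, adjusted p = 0.218).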
